A study of Mus musculus with 8 samples.

Results

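The genes described here are 32 genes of the unfolded protein response and of protein folding in the endoplasmic reticulum (ER). They were given by symbol and matched through Ensembl identifiers to 32 of the 37991 genes in the deposited count table. By role they are 3 stress sensors, 10 genes of the ATF4 branch, 7 genes of the XBP1 branch and of ER-associated degradation, 5 genes of the ATF6 branch, and 7 general chaperones and protein disulfide isomerases. The branches share targets, so this division is a textbook convention.

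RNA was sequenced from isolated adult mouse cardiomyocytes, the contractile cells of the heart muscle, in 4 libraries of single colored and 4 libraries of double colored cells. All mice carried an alpha-MHC MERCREMER transgene, a tamoxifen-dependent Cre recombinase driven by a cardiomyocyte promoter, and the reporter of MADM, mosaic analysis with double markers. All hearts had received adenovirus coding for 4 cell cycle genes, and cells were collected 2 weeks later. The single colored group is labelled as cells that passed through the cell cycle, and the double colored group as cells with the same treatment that did not. In MADM a recombined cell that divides can leave daughters of a single color, a recombined cell that does not divide carries both colors, and some divisions also leave a double colored daughter. Both groups thus come from injected, Cre-bearing hearts, and uninjected hearts were not analysed here. The sources used here give neither age nor whether each library is a separate animal, so p-values reflect only how these libraries vary, which may be technical.

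The ER folds secreted and membrane proteins, and an excess of unfolded protein activates a trio of sensors in its membrane. PERK (gene Eif2ak3) phosphorylates the translation factor eIF2 alpha, which lowers general protein synthesis while favoring translation of ATF4, an activator of amino acid synthesis and stress genes. IRE1 (gene Ern1) splices Xbp1 mRNA to the form that codes for an active transcription factor. ATF6 is cut in the Golgi apparatus to release another, and XBP1 and ATF6 together raise chaperones and the machinery that clears misfolded proteins. In heart muscle these pathways are known from pressure overload and ischemia. Counts per gene do not separate spliced from unspliced Xbp1, and show neither cleavage of ATF6 nor translation of Atf4.

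The promoter sequences that carry the known response elements are shown first, since they group the members independently of the counts. They are RefSeq promoters of build GRCm38.p6, from 250 bases before to 50 bases after a gene's start, and 29 of the 32 members had an entry (Atf6, Manf and Hyou1 had none). The ER stress response element (ERSE) was searched on both strands as CCAAT, any 9 bases, then CCACG, where the factor NF-Y contacts the first part and ATF6 or XBP1 the second. It was found in 8 of the 29 members, against 0.119% of all 32851 promoters of the same length. The matches follow with 8 flanking bases on each side, read along the strand of the element, with CCAAT and CCACG in capitals.
Dnajc3, chr14:118937819-118937853, plus strand: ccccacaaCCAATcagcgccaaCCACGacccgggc
Syvn1, chr19:6046524-6046558, plus strand: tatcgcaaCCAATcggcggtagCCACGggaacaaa
Creld2, chr15:88819512-88819546, minus strand: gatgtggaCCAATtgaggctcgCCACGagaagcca
Hspa5, chr2:34772017-34772051, plus strand: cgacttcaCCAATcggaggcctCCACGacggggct
Hsp90b1, chr10:86705630-86705664, minus strand: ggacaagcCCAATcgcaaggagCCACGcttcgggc
Hsp90b1, chr10:86705525-86705559, plus strand: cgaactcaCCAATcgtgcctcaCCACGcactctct
Calr, chr8:84847067-84847101, plus strand: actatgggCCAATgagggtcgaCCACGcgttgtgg
Canx, chr11:50325792-50325826, minus strand: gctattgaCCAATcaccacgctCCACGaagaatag
Pdia6, chr12:17266483-17266517, plus strand: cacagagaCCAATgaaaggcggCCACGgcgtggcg

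The related ERSE-II, searched on both strands as ATTGG, any base, then CCACG, was found in 2 members, against 0.0365% of all promoters. The CCACG part is shared with ERSE, and its reverse complement forms the end of the UPRE motif named next. In the ERSE-II matches the fixed letters are in capitals.
Dnajb11, chr16:22857844-22857870, plus strand: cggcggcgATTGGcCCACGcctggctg
Herpud1, chr8:94386369-94386395, plus strand: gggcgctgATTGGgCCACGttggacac

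No member's window held the UPRE letters TGACGTGG on either strand, which 0.676% of all promoters held. The C/EBP-ATF element, which ATF4 binds with a partner, was searched as TGATGNAA on both strands. It was found in 6 members, against 3.97% of all promoters, and 5 of the 6 are genes of the ATF4 branch (the Vldlr match lies in the promoter of its second listed start). Its fixed letters are in capitals.
Asns, chr6:7693217-7693240, minus strand: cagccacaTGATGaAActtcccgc
Trib3, chr2:152344031-152344054, plus strand: cgcccggcTGATGtAAacctgagc
Chac1, chr2:119351041-119351064, minus strand: ggcaggagTGATGcAAcggcaggg
Fgf21, chr7:45615614-45615637, plus strand: tggacggaTGATGcAAtggggggg
Vldlr, chr19:27216812-27216835, minus strand: aggagcgcTGATGcAActattgct
Herpud1, chr8:94386309-94386332, minus strand: gtgcgggcTGATGcAAcccgccgt

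A pair of longer stretches shows the element in place, each the 250 bases before the gene's start on the gene's own strand, with the fixed ERSE letters in capitals. Calr was the ERSE-bearing member with the smallest p in the comparison described below, and Hspa5 is the classical ERSE gene. In Calr the element lies in the opposite orientation and so reads as its reverse complement.
Calr, chr8:84846932-84847181, minus strand: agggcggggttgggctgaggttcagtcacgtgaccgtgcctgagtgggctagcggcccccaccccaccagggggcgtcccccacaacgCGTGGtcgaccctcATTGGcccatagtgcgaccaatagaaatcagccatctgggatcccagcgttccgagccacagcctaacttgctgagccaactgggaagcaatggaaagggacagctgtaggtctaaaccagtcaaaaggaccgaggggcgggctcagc
Hspa5, chr2:34771840-34772089, plus strand: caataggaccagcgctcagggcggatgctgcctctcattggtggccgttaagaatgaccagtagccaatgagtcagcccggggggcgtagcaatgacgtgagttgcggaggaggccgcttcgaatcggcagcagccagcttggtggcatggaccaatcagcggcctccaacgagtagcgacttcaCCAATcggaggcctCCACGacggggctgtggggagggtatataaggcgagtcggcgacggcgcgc

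Libraries held 25604705 to 30082278 counted reads in single and 23820700 to 30057373 in double colored cells. Mitochondrially encoded transcripts took 77.5% to 85.9% of them in single and 84.2% to 88.3% in double colored cells, which left 3750616 to 6112595 nuclear-encoded reads in single and 3503353 to 3850391 in double colored cells. The levels below are CPM (reads scaled to a common library total that counts nuclear and mitochondrial reads, after TMM scaling), where 1 read was worth 0.026 to 0.0397 CPM in single and 0.0418 to 0.0455 CPM in double colored libraries. Cardiomyocyte markers were abundant in all libraries, at summed levels of 5292 to 9460 CPM in single and 10180 to 11040 CPM in double colored cells (8 genes, 0 called), with every single colored sum below every double colored one. Markers of other cells were present too. Myeloid markers summed to 232 to 400.1 CPM in single colored, against 104 to 148 CPM in double colored libraries (6 of 10 genes higher). Lymphocyte markers summed to 14.5 to 28.9 CPM in single colored, against 1.34 to 4.02 CPM in double colored libraries (6 of 6 tested genes higher), and 1 of 8 fibroblast markers was higher. Plasma cell markers, of a cell type with a large ER, summed to 6.58 to 11.6 CPM in single colored, against 4.45 to 6.20 CPM in double colored libraries, with Tnfrsf17 at 0 reads in every library. Only 3 of these 7 genes were tested and 0 were called (smallest edgeR adjusted p = 0.0900). All 3 had estimates higher in single colored cells, 2 of them at an unadjusted edgeR p under 0.05. Prdm1 alone made up most of the sum, at a mean of 5.10 CPM in single colored, against 3.46 CPM in double colored libraries. Endothelial markers summed to 146 to 195 CPM in single colored, against 178 to 233 CPM in double colored libraries, and smooth muscle and pericyte markers to 227 to 319 CPM in single colored, against 292 to 399.6 CPM in double colored libraries, with 0 called in both lists. Rgs5 made up most of the smooth muscle and pericyte sum, at a mean of 231 CPM in single colored, against 305 CPM in double colored libraries. Of these 6 genes, 4 had estimates higher and 2 lower in single colored cells. The part of all these other cells in the results was not tested, and in such bulk samples fewer cells of a type and less RNA per cell cannot be told apart.

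The main fit tested 12466 genes with edgeR's quasi-likelihood test, without a block for the replicate number. In it none of the 30 tested members differed between single and double colored cells at an adjusted p under 0.05. At that threshold 309 genes or 2.48% of all differed, 289 higher and 20 lower in single colored cells. DESeq2 called 455 genes higher and 101 lower, the replicate block described below 619 higher and 320 lower, and scaling by library totals alone 1389 higher and 1 lower. When each library was left out, 133 to 277 genes were higher and 1 to 29 lower, the fewest of each without double colored replicate 4. Fold changes are given on the log2 scale with a standard error (SE), and a positive one means more RNA in single colored cells. Of the 30 members 18 had positive and 12 negative values, with a median of 0.12 against −0.01 for all tested genes. Unadjusted p was under 0.05 for 8 members with higher and 0 with lower levels (26.7% and 0 of 30), compared with 9.02% higher and 6.1% lower of all tested genes. These 8 were Edem1, Pdia4, Sdf2l1, Calr, Gdf15, Pdia3, Syvn1 and Dnajb11. With DESeq2, 1 member passed at the adjusted threshold, Edem1 (adjusted p = 0.0212). The 95% intervals of the log2 fold changes had half-widths from 0.29 to 1.14 with a median of 0.45, and for 23 of the 30 members they lay wholly between −1 and 1.

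**Figure D1:**
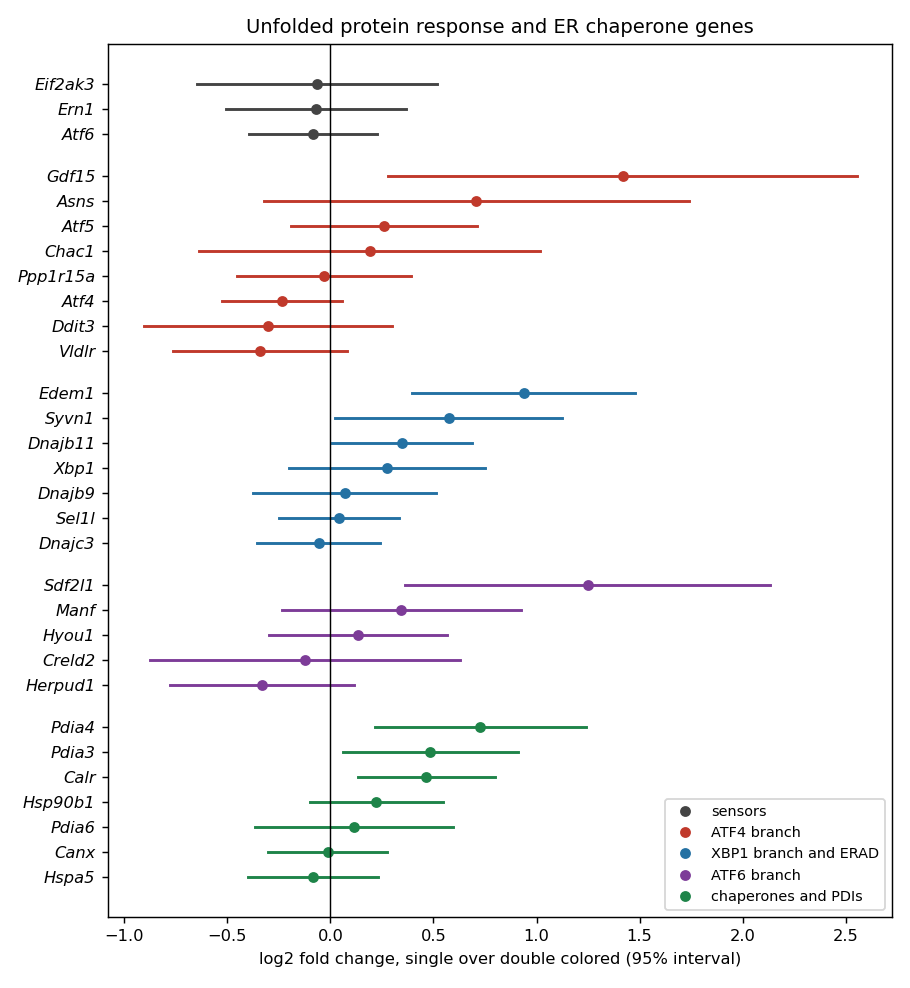
Log2 fold change (single colored relative to double colored) of the 30 tested members (x axis), with points for the estimate and lines for the 95% interval, grouped and colored by role down the page. The intervals of 8 members lie above 0 and none lies wholly below it, and the sensors at the top sit between −0.08 and −0.07.

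Replicate numbers 1 to 4 are shared by the groups, and same-numbered libraries varied together only weakly. Over genes, r was 0.126 to 0.257 for the same number, against at most 0.108 between different numbers. The fit with the number as a block is given where it changes a call. It is also given for Calr, Sdf2l1 and Vldlr, the members next in order of its adjusted p. With that block 3 members were higher, Edem1 (edgeR adjusted p = 0.00204), Pdia4 (0.0262) and Pdia3 (0.0408), and 0 were lower, against 4.97% of all tested genes higher and 2.57% lower. With scaling by library totals alone, 9 members were higher, against 11.1% of all tested genes, and the median of all genes moved to 0.48 from near 0. In that scaling the members' median was 0.61, and all 12 negative estimates became positive, between 0.11 and 0.48. In the authors' deposited table of their own test, 5 of the 31 members with a value had a raw p under 0.05 and 0 an FDR under 0.05, against 9.77% of all genes at that raw p (smallest FDR 0.306 among the members, 0.185 among all 15711 genes).

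The 3 sensors had log2 fold changes between −0.08 and −0.07, and the intervals of all 3 included 0. Ern1, which codes for the kinase and nuclease IRE1, was measured at 4.77, 4.57, 5.0 and 4.92 CPM in single colored replicates 1 to 4, against 4.73, 3.59, 6.09 and 5.81 CPM in double colored replicates 1 to 4. Its single colored values lay within the range of the double colored ones, with a log2 fold change of −0.07 ± 0.21 and a 95% interval of −0.51 to 0.37. Atf6 was the most abundant sensor, at 43.5, 52.8, 51.2 and 49.8 CPM in the single colored libraries, against 42.7, 56.2, 51.8 and 58.3 CPM in the double colored ones. Replicate 1 was the lowest library in both groups, and the fold change was −0.08 ± 0.15 with an interval of −0.39 to 0.23. Eif2ak3, the gene of PERK, had 2.12, 1.99, 1.51 and 1.79 CPM in the single colored libraries, against 2.18, 2.09, 1.81 and 1.67 CPM in the double colored ones. The groups overlapped, and its 95% interval was wider, −0.65 to 0.52, with 40 to 81 reads per library.

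The ATF4 branch was mixed. Of its 10 genes 8 were tested, 4 above and 4 below 0 on the log2 fold change scale, where their median was 0.08. Atf4, the activator that gives the branch its name, was measured at 19.8, 20.6, 18.9 and 22.6 CPM in the single colored libraries, against 23.9, 23.1, 27.6 and 21.7 CPM in the double colored ones. Only single colored replicate 4 exceeded the lowest double colored library, and the log2 fold change was −0.23 ± 0.14 (95% interval −0.52 to 0.06, edgeR adjusted p = 0.453). Vldlr, a lipoprotein receptor whose gene is an ATF4 target, was the most abundant of the branch by CPM, at 46.3, 81.8, 89.6 and 73.6 CPM in the single colored libraries, against 68.8, 105, 101 and 93.9 CPM in the double colored ones. It was lower in the single colored library of all 4 numbered pairs and lowest in replicate 1 of both groups, and its log2 fold change was −0.34 ± 0.20 (edgeR adjusted p = 0.453, and 0.0770 with the replicate block).

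Among the stress effectors of this branch, Ddit3, which codes for the pro-apoptotic factor CHOP, had 4.38, 7.61, 7.26 and 9.29 CPM in the single colored libraries, against 4.10, 8.77, 11.6 and 10.6 CPM in the double colored ones. The groups overlapped, replicate 1 was the lowest in each, and the log2 fold change was −0.30 ± 0.28 (95% interval −0.91 to 0.30). Over 4.73% of its exon length Ddit3 overlaps Gm4189 and Mars on the opposite strand, and Atf5 overlaps Il4i1 and another gene over 4.12%. Ppp1r15a, which codes for GADD34, the phosphatase subunit that reverses eIF2 alpha phosphorylation, averaged 6.74 ± 1.54 CPM in single colored libraries, against 6.86 ± 0.800 CPM in double colored libraries (mean ± SD, n = 4 each). Atf5, a factor related to ATF4, had a log2 fold change of 0.26 ± 0.21, and Chac1, which codes for an enzyme that breaks down glutathione, one of 0.19 ± 0.39. Both intervals included 0, from −0.19 to 0.71 for Atf5 and from −0.64 to 1.02 for Chac1.

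The secreted and metabolic targets of the branch had few reads. Gdf15, which codes for a circulating stress hormone (mm9 chromosome 8, 73153292 to 73156355), had the largest estimate of all members. It was measured at 1.02, 0.349, 1.95 and 0.675 CPM in the single colored libraries, against 0.419, 0.273, 0.389 and 0.418 CPM in the double colored ones, from 141 reads in single and 35 in double colored libraries. Single colored replicate 3 was the highest and replicate 2 lay within the double colored range, and its log2 fold change was 1.42 ± 0.54 (edgeR adjusted p = 0.207). Leaving out 1 library at a time gave estimates from 0.86 to 1.69, the lowest without single colored replicate 3. Asns, the gene of asparagine synthetase, had 1.28, 0.558, 1.22 and 0.675 CPM in the single colored libraries, against 0.461, 1.05, 0.302 and 0.501 CPM in the double colored ones, with a log2 fold change of 0.71 ± 0.49 and an interval of −0.32 to 1.74. Trib3, the gene of a pseudokinase induced by ATF4, was left out of the test by the filter on low counts, with 33 reads in single and 17 in double colored libraries. Fgf21, the gene of another circulating stress hormone, had 0 reads in each of the 8 libraries. A count of 0 allows up to 3 reads, or 0.0781 to 0.119 CPM in single and 0.125 to 0.136 CPM in double colored libraries, counting error only.

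**Figure D2:**
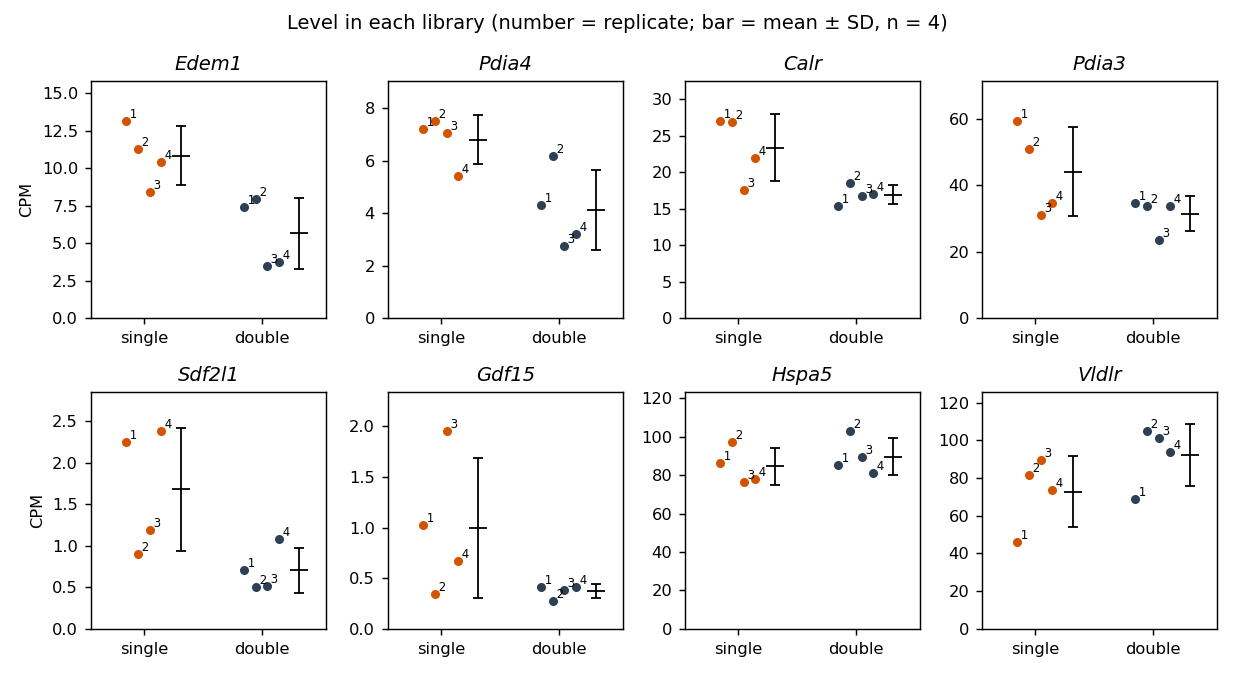
CPM (y axis, from 0) of 8 members in each library, single colored left and double colored right in each panel. Points are libraries with their replicate number, and the bar beside each group is the mean with its SD (n = 4). Edem1 has no overlap between groups, the groups overlap for Hspa5, and Vldlr is lowest in replicate 1 of both groups.

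In the XBP1 branch and ER-associated degradation, the median log2 fold change was 0.28, with 6 of 7 genes above 0 and 3 at an unadjusted p under 0.05. Edem1 (mm9 chromosome 6, 108778635 to 108809350), which codes for a lectin-like protein that hands misfolded glycoproteins to degradation, stood at 13.2, 11.3, 8.43 and 10.4 CPM in the single colored libraries, against 7.41, 7.95, 3.5 and 3.76 CPM in the double colored ones. All 4 single colored libraries lay above all 4 double colored ones, which held for 1 of the 30 members and 5.37% of all tested genes. Its log2 fold change was 0.94 ± 0.26 (95% interval 0.40 to 1.48, edgeR adjusted p = 0.0658). The adjusted p was 0.00204 with the replicate block, and leaving out 1 library at a time gave 0.0498 to 0.217, of which only the fit without double colored replicate 2 passed. Over all 17 alternatives the adjusted p ran from 0.000469 with no filter on low counts to 0.217.

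The 8 fibroblast markers summed to 1848, 1045, 710.1 and 623 CPM in single colored replicates 1 to 4, against 738, 671, 322 and 300.2 CPM in double colored replicates 1 to 4. Double colored replicates 3 and 4, the lowest for Edem1, were thus also the lowest for these markers. They were also lowest for the myeloid markers, at 148, 139, 120 and 104 CPM in double colored replicates 1 to 4. The same held for the lymphocyte markers, at 4.02, 3.23, 2.68 and 1.34 CPM, but not for the other marker lists. In single colored libraries Edem1 and the myeloid sum were lowest in replicate 3, and the fibroblast sum in replicate 4. Whether RNA of any of these cell types takes part in the Edem1 difference was not tested. The single colored library with the most fibroblast and myeloid RNA was replicate 1, and without it the Edem1 estimate was 0.82 (edgeR adjusted p = 0.195). Without both libraries numbered 1 the estimate was 0.99 (edgeR adjusted p = 0.1155). Leaving out double colored replicate 1, 2, 3 or 4 gave estimates of 1.09, 1.14, 0.76 and 0.78.

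Among the partners of Edem1 in degradation, the ligase and its adaptor had unlike estimates. Syvn1, the gene of the ubiquitin ligase HRD1, was measured at 5.63, 3.98, 9.68 and 5.79 CPM in the single colored libraries, against 3.10, 4.36, 5.27 and 4.18 CPM in the double colored ones. Single colored replicate 3 stood highest and replicate 2 fell inside the double colored range, and its log2 fold change was 0.57 ± 0.26 (edgeR adjusted p = 0.306). Without single colored replicate 3 the estimate was 0.27, and leaving out any other library gave at most 0.73. Sel1l, which codes for the adaptor of the same ligase, averaged 23.5 ± 0.850 CPM in single colored libraries, against 22.8 ± 2.82 CPM in double colored libraries (mean ± SD, n = 4 each), and its interval of −0.25 to 0.33 is among the narrow ones. The difference between the estimates of 0.57 for Syvn1 and 0.04 for Sel1l was not tested.

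Xbp1 itself was measured at 8.31, 4.78, 6.45 and 6.39 CPM in the single colored libraries, against 4.31, 5.77, 7.09 and 4.30 CPM in the double colored ones. The groups overlapped, with a log2 fold change of 0.28 ± 0.22 and a 95% interval of −0.20 to 0.75. The members include 3 ER-resident J-domain cochaperones of the BiP chaperone. Dnajb11 had 16.6, 15.8, 13.5 and 17.7 CPM in the single colored libraries, against 11.0, 13.5, 10.3 and 15 CPM in the double colored ones, higher in single colored cells in 4 of 4 numbered pairs (log2 fold change 0.35 ± 0.16, edgeR adjusted p = 0.319). Dnajb9 and Dnajc3 had log2 fold changes of 0.07 ± 0.21 and −0.06 ± 0.14, with intervals of −0.37 to 0.51 and −0.36 to 0.24.

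Of the 5 ATF6 branch genes, 3 had estimates above and 2 below 0, and the median log2 fold change was 0.13. Sdf2l1 (mm9 chromosome 16, 17130231 to 17132476), which codes for an ER protein that works with BiP and its cochaperones, stood at 2.25, 0.907, 1.2 and 2.38 CPM in the single colored libraries, against 0.712, 0.5, 0.519 and 1.09 CPM in the double colored ones. Double colored replicate 4 exceeded single colored replicate 2, while within each of the 4 numbered pairs the single colored library was higher. The log2 fold change was 1.25 ± 0.42 (95% interval 0.36 to 2.13, edgeR adjusted p = 0.148, and 0.0527 with the replicate block), from 218 reads in single and 66 in double colored libraries. Herpud1, the gene of a membrane protein of ER-associated degradation, was measured at 5.21, 9.14, 7.55 and 8.37 CPM in the single colored libraries, against 6.57, 11.2, 10.7 and 9.57 CPM in the double colored ones. Its value was smaller in the single colored library of all 4 pairs, although the groups overlapped, with a log2 fold change of −0.33 ± 0.21 and an interval of −0.78 to 0.12.

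The remaining ATF6 branch genes had intervals that included 0. Manf, which codes for a secreted protein that supports cells under ER stress, was measured at 4.59, 3.18, 2.91 and 5.12 CPM in the single colored libraries, against 4.65, 2.14, 2.98 and 2.63 CPM in the double colored ones (log2 fold change 0.34 ± 0.27). Over 4.14% of their length its exons overlap Dcaf1, an antisense neighbor, and no source used here says whether counting used strand. Hyou1, the gene of a large ER chaperone, had a log2 fold change of 0.13 ± 0.20, and Creld2, the gene of an ER-resident, stress-induced protein, one of −0.12 ± 0.35.

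**Figure D3:**
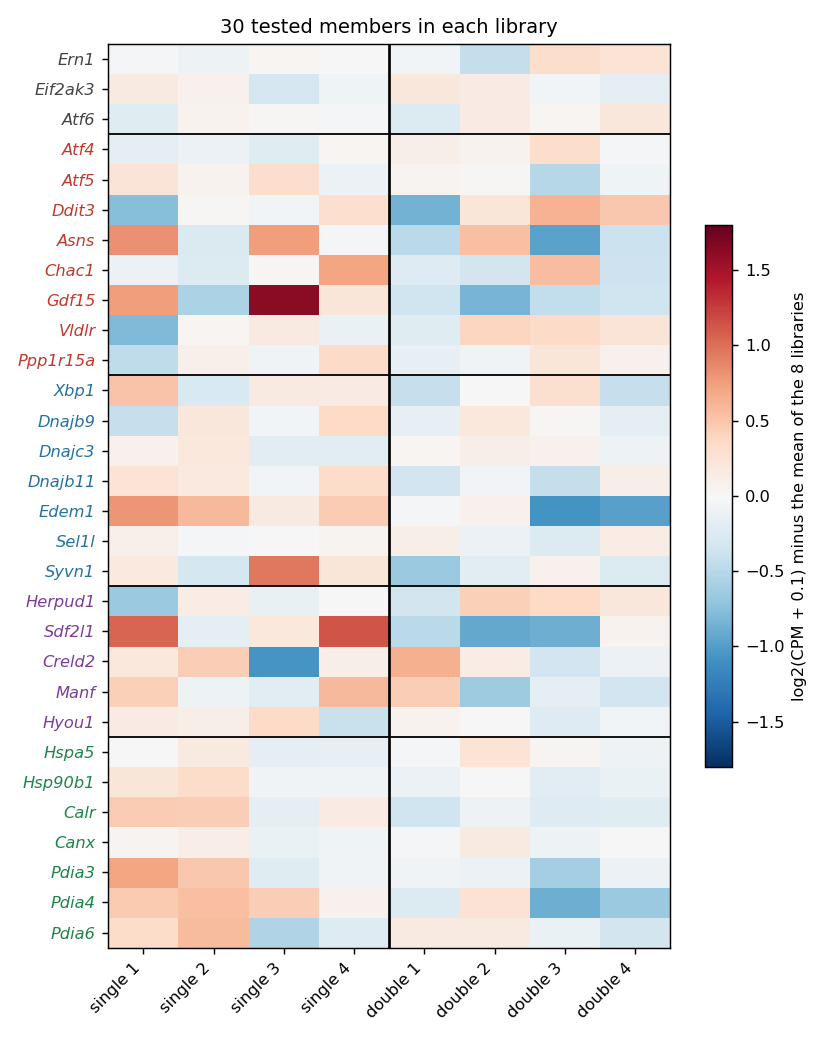
Level of the 30 tested members (rows, colored by role) in each library (columns, single colored left and double colored right). Color is log2(CPM + 0.1) minus the mean of the 8 libraries, red above and blue below. Edem1 is above its mean in all 4 single colored libraries, and Ddit3, Vldlr and Herpud1 are low in replicate 1 of both groups.

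Among the 7 general chaperones and isomerases, 5 had positive estimates, 3 of them at an unadjusted p under 0.05 (Pdia4, Calr and Pdia3), and the genes of BiP and calnexin had small negative ones. Hspa5 (mm9 chromosome 2, 34627490 to 34632051), the gene of BiP, the main ER chaperone and the usual readout of the unfolded protein response, was measured at 86.4, 97.4, 76.5 and 78.0 CPM in the single colored libraries, against 85.1, 103, 89.5 and 81.2 CPM in the double colored ones. The groups overlapped, and the log2 fold change was −0.08 ± 0.15 with a 95% interval of −0.40 to 0.23, or 0.757 to 1.18 as a fold. Canx, the gene of the lectin chaperone calnexin, averaged 50.8 ± 3.95 CPM in single colored libraries, against 51.3 ± 4.08 CPM in double colored libraries (mean ± SD, n = 4 each), a log2 fold change of −0.01 ± 0.14. Hsp90b1, the gene of the ER chaperone GRP94, had 119.6, 129, 97.7 and 98.3 CPM in the single colored libraries, against 95, 103, 88.7 and 94.4 CPM in the double colored ones. The single colored library had the larger value in all 4 pairs, while the groups overlapped (log2 fold change 0.22 ± 0.15, edgeR adjusted p = 0.539). Of its exon length 10.3% lies over a gene on the opposite strand and 5.38% over the same-strand genes Gm15344 and Gm25745, so some of its reads cannot be assigned with certainty.

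Calr (mm9 chromosome 8, 87365749 to 87370833), the gene of the calcium-binding lectin chaperone calreticulin, stood at 27.1, 26.9, 17.6 and 21.9 CPM in the single colored libraries, against 15.3, 18.5, 16.8 and 17.0 CPM in the double colored ones. Only single colored replicate 3 fell inside the double colored range, and the log2 fold change was 0.47 ± 0.16 (95% interval 0.13 to 0.80, edgeR adjusted p = 0.155, and 0.0516 with the replicate block). Calnexin and calreticulin, which act in the same lectin cycle, thus had intervals of −0.30 to 0.28 and 0.13 to 0.80, and the difference between them was not tested.

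Pdia3 (mm9 chromosome 2, 121239511 to 121264423), the gene of the isomerase that works with both lectins, was measured at 59.6, 50.9, 31.2 and 34.7 CPM in the single colored libraries, against 34.8, 33.7, 23.7 and 33.9 CPM in the double colored ones. Single colored replicates 1 and 2 stood well above the rest, and within each of the 4 pairs the single colored library was higher. Its log2 fold change was 0.48 ± 0.20 (edgeR adjusted p = 0.257, and 0.0408 with the replicate block), and 0.30 without single colored replicate 1 (edgeR adjusted p = 0.562). Pdia4 (mm9 chromosome 6, 47746141 to 47763511), which codes for an isomerase with several thioredoxin-like domains, had 7.21, 7.54, 7.05 and 5.44 CPM in the single colored libraries, against 4.31, 6.18, 2.77 and 3.22 CPM in the double colored ones. Single colored replicate 4 fell below double colored replicate 2, and 4 of 4 pairs were higher in the single colored library (log2 fold change 0.73 ± 0.24, edgeR adjusted p = 0.145, and 0.0262 with the replicate block). Its adjusted p ran from 0.00352 with library totals alone to 0.379 without double colored replicate 4, and that of Pdia3 from 0.00820 to 0.562. Pdia6, another isomerase and a partner of BiP, averaged 9.36 ± 3.23 CPM in single colored libraries, against 8.65 ± 1.40 CPM in double colored libraries (mean ± SD, n = 4 each), with a log2 fold change of 0.11 ± 0.23.

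By role, the median log2 fold changes were −0.07 for the sensors, 0.08 for the ATF4 branch, 0.28 for the XBP1 branch and degradation, 0.13 for the ATF6 branch and 0.22 for the chaperones and isomerases. These medians rest on 3 to 8 tested genes each and differences between them were not tested. With any 1 library left out, the ATF4 branch median ran from −0.13 to 0.16, and that of the XBP1 branch from 0.18 to 0.35. The 8 members with an ERSE in the promoter shown above had a median of 0.05 (4 positive, range −0.12 to 0.57), and the 17 tested members whose promoter held neither ERSE nor ERSE-II had one of 0.19 (11 positive, range −0.34 to 1.42).

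**Figure D4:**
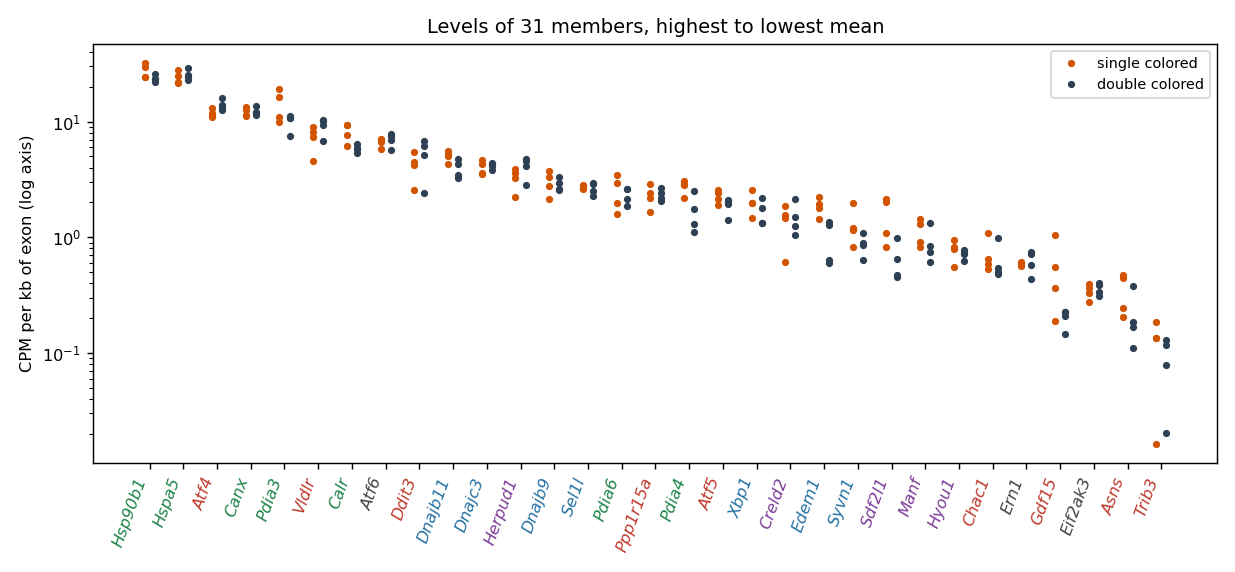
Level per length of 31 members (x axis, highest mean at left) as CPM per kb of exon on a log axis, with 4 points for single and 4 for double colored libraries. Hsp90b1 and Hspa5 stand highest and Trib3 lowest, and Fgf21, with 0 reads, cannot be drawn on the log axis.

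Per kb of exon length, averaged over the 8 libraries, Hsp90b1 and Hspa5 stood highest at 25.6 and 24.8 CPM per kb, and the ranges over libraries, 22.0 to 32.1 and 21.8 to 29.3, overlapped. Atf4, Canx and Pdia3 followed at 12.9, 12.2 and 12.0 CPM per kb, also with overlapping ranges. Atf6 stood at 6.81 CPM per kb, against 0.604 for Ern1 and 0.349 for Eif2ak3, and the lowest Atf6 library, at 5.72, lay above the highest of the other sensors, 0.745 for Ern1 and 0.401 for Eif2ak3. Within the ATF4 branch the levels ran from 12.9 CPM per kb for Atf4 through 8.20 for Vldlr and 4.64 for Ddit3 to 0.277 for Asns and 0.102 for Trib3. Xbp1, at 1.82 CPM per kb, and Edem1, at 1.41, had overlapping ranges of 1.33 to 2.56 and 0.597 to 2.25.

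Several members had their lowest value under the same replicate number in both groups. Atf6, Ddit3, Vldlr, Ppp1r15a and Herpud1 were lowest in replicate 1 of both groups, which is 16.7% of the tested members against 10.6% of all tested genes. For 14 of the 30 members (46.7%) the lowest library carried the same number in both groups, against 33.3% of all tested genes. In both groups replicate 1 also had the lowest summed cardiomyocyte markers and the highest myeloid and fibroblast sums. Its cardiomyocyte sum was 5292 CPM in single colored cells, against 8856 to 9460 CPM in the other single colored libraries. In double colored cells it was 10180 CPM, nearer to the 10530 to 11040 CPM of the other double colored libraries. The part of these marker differences in the members' pattern was not tested.

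Other genes of the same pathways were read from textbook lists, drawn up with earlier results of these data known. Of 35 other genes of the integrated stress response, the common program that ATF4 directs, 32 were tested. Mars1 was left out because that symbol was not matched, where the names used here hold Mars. Of the 32 tested genes, 23 lay above 0 on the log2 fold change scale, where the median was 0.17, compared with 49.4% of all tested genes above 0. Slc7a11, which codes for the cystine transporter, was the 1 that passed, higher in single colored cells at 1.18, 0.419, 0.546 and 0.873 CPM, against 0.0419, 0.0909, 0.173 and 0.125 CPM in double colored libraries. All single colored libraries lay above the double colored ones, whose values stood for at most 4 reads each, and the log2 fold change was 2.76 ± 0.62 (edgeR adjusted p = 0.0249). The call was lost without single colored replicate 1 or 4 or double colored replicate 1, 2 or 4 (adjusted p up to 0.131), without both libraries numbered 1 (0.202) and with limma-voom (0.0596). With the replicate block, 4 of the 32 were higher and 1 lower, against the 4.97% higher and 2.57% lower of all tested genes. Named after their values were seen, the others were Nupr1, a stress-induced chromatin factor (edgeR adjusted p = 0.00724 with the block), Psat1, an enzyme of serine synthesis (0.0224), Eif2ak2, the double-stranded RNA kinase PKR (0.0246), and the lower one, Atf3, a stress-induced repressor (0.0142). Without the block none of these 4 passed, with edgeR adjusted p of 0.0503 for Psat1, 0.119 for Nupr1, 0.122 for Atf3 and 0.186 for Eif2ak2. Psat1 was at 3.68 ± 0.940 CPM in single colored libraries, against 1.83 ± 0.217 CPM in double colored libraries (mean ± SD, n = 4 each). Atf3 was at 13.5 ± 1.95 CPM in single colored libraries, against 21.5 ± 7.66 CPM in double colored libraries. In the fit without the block, unadjusted p was under 0.05 for 8 higher and 2 lower of the 32 genes. That share was 31.25%, against 15.12% of all tested genes.

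Of 52 other genes of ER translocation, folding and degradation, 51 were tested and 41 (80.4%, against the 49.4% of all tested genes) lay above 0 on the log2 fold change scale, where the median was 0.18. By the edgeR test 0 passed the adjusted threshold, and the unadjusted p was under 0.05 for 5 higher genes and 0 lower ones, a share of 9.80% near the 9.02% of all tested genes that were higher. By p the first was Creb3l1, which codes for a membrane-bound transcription factor of secretory cells, at 6.97, 5.10, 3.23 and 3.37 CPM in the single colored libraries, against 3.02, 2.55, 3.07 and 1.84 CPM in the double colored ones. All single colored libraries lay above the double colored ones, replicate 1 highest (log2 fold change 0.84 ± 0.28, edgeR adjusted p = 0.145, and 0.0478 with the replicate block). Sec61a1, the gene of the main subunit of the protein translocation channel, had 13.4, 11.3, 10.3 and 8.77 CPM in the single colored libraries, against 9.13, 9.54, 4.84 and 5.22 CPM in the double colored ones (log2 fold change 0.61 ± 0.23, edgeR adjusted p = 0.204, and 0.0239 with the block). Like Edem1, it was lowest in double colored replicates 3 and 4. Ero1lb, the gene of an oxidase that recharges the disulfide isomerases, was at 2.46 ± 0.741 CPM in single colored libraries and 1.32 ± 0.794 CPM in double colored libraries (mean ± SD, n = 4 each; edgeR adjusted p = 0.303). Col1a1, the collagen gene that was the most abundant fibroblast marker, averaged 288 CPM in single colored, against 84.9 CPM in double colored cells. Of the 8 fibroblast markers, 6 lay above and 2 below 0 on the log2 fold change scale. The part of fibroblast RNA in the values of these secretory genes was not tested.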

How the data were processed

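The members and lists were chosen with earlier results of these data known. The submitters' processing notes name the build mm9, the aligner STAR 2.5.2b and, for counting, featureCounts of Subread. Per the file headers, the deposited values are raw counts of whole reads (not expected or estimated counts, so nothing was rounded), and the alignment names carry a mapping quality mark of 30. Strand setting and annotation release are not given in the sources used here. Per the labels, a miRNeasy Micro Kit gave the RNA and an Ovation RNA-seq System v2 Kit the amplified cDNA, so low counts may rest on few molecules.

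GENCODE vM21 gave symbols, by Ensembl identifier, for 32919 of the 37991 genes. All 8 libraries, 4 of each group, entered a robust quasi-likelihood fit in edgeR 4.0.16 (R 4.3.3) after filterByExpr (minimum count 10) and TMM scaling. P-values were adjusted over 12466 genes by Benjamini and Hochberg's method, with a threshold of 0.05. SE and 95% intervals follow from the F statistic and its degrees of freedom. The procedure was checked on simulated data. Alternatives used DESeq2 1.42.0, limma 3.58.1 and limma on the CPM the authors deposited (pseudocount 1). Motif positions use GRCm38.p6 and gene positions mm9. Proteins were not used here.

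To see whether replicate numbers pair the libraries, each library's deviation from its group mean was correlated with that of the other group's library of the same number. Over genes, r was 0.257, 0.126, 0.136 and 0.139 for numbers 1 to 4, all over the 0.1 needed here to take them as pairs. Between different numbers it was at most 0.108, for single colored 3 with double colored 4, which also passes 0.1. What a number stands for is not in the labels, so the main fit held no block and the fit with the block is an alternative. All members have values in the text, with values per library for the 3 of smallest p in each role and for a few more chosen after their values were seen.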

Additional observations from a re-analysis of the deposited data

Results flagged for a closer look

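In groups of 4 libraries, 2 of the 60 groups of member values held a library far from its 3 others by Dixon's criterion, where chance gives about 1 in 20. Pdia3 in double colored replicate 3 was 23.7 CPM, against 33.7 to 34.8 CPM in the other double colored libraries. Chac1 in double colored replicate 3 was 1.6 CPM, against 0.794 to 0.879 CPM in the others, from 37 reads.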

How the results depend on the processing

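Of 502 member values over 17 alternatives, 444 kept direction and side of the threshold, 20 passed it and 38 changed sign, the last all members without a call at the threshold. The number of genes called was 309 of 12466 tested, against 556 of 12466 with DESeq2 and 253 of 12466 with limma-voom. It was 1390 of 12466 with library totals alone and 939 of 12466 with the replicate block. With no filter it was 805 of 23680, with the filter at 5 CPM 104 of 4882, and on the deposited CPM 564 of 15711. It was 146 of 12410 without both libraries numbered 1, and 134 to 304 of 12637 to 12952 when each library was left out. Of 30 members, 1 was called with DESeq2 and 1 with limma-voom (Edem1), 2 with no filter, 3 with the replicate block and 3 on the deposited CPM. With library totals alone it was 9 of 30, and 0 to 1 of 30 when each library was left out. No member was called without mitochondrially encoded genes, with the filter at 5 CPM, or without both libraries numbered 1. The replicate block changed no other member's call.

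With library totals alone the medians were 0.61 for the members, 0.40 for sensors, 0.51 for the ATF4 branch, 0.79 for the XBP1 branch, 0.66 for the ATF6 branch and 0.71 for chaperones, where the median of all genes moved to 0.48. On the deposited CPM, where it moved to 0.19, the members' median was 0.29 and that of the ATF4 branch 0.26. With the filter at 5 CPM, which kept 22 members, the ATF4 branch median was −0.22. When each library was left out, medians ran from 0.08 to 0.15 for the members, −0.11 to −0.03 for sensors, −0.13 to 0.16 for the ATF4 branch, 0.18 to 0.35 for the XBP1 branch, 0.07 to 0.19 for the ATF6 branch and 0.14 to 0.27 for chaperones.

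Log2 fold changes that were negative became positive with library totals alone for Ern1 (0.40), Eif2ak3 (0.43), Atf6 (0.40), Atf4 (0.23), Ddit3 (0.12), Vldlr (0.13), Ppp1r15a (0.41), Dnajc3 (0.43), Herpud1 (0.11), Creld2 (0.33), Hspa5 (0.40) and Canx (0.48), each below the shift of all genes. On the deposited CPM this held for Ern1 (0.17), Eif2ak3 (0.13), Atf6 (0.14), Ppp1r15a (0.16), Dnajc3 (0.15), Creld2 (0.0423), Hspa5 (0.13) and Canx (0.20). The filter at 5 CPM turned Ppp1r15a (0.0118) and Canx (0.0315), limma-voom Ppp1r15a (0.0254), and leaving out both libraries numbered 1 Ppp1r15a (0.0441) and Creld2 (0.0396). When each library was left out, Ern1 ran from −0.21 to 0.0265, Eif2ak3 from −0.15 to 0.0149, Chac1 from −0.0839 to 0.49, Ppp1r15a from −0.17 to 0.0948, Dnajb9 from −0.0612 to 0.19, Sel1l from −0.029 to 0.10, Creld2 from −0.31 to 0.12, Canx from −0.061 to 0.0384 and Pdia6 from −0.0876 to 0.27. The cause of these changes was not tested. Over all alternatives the adjusted p ran from 0.00885 to 0.426 for Calr, 0.0111 to 0.425 for Sdf2l1, 0.0204 to 0.5 for Gdf15, 0.0238 to 0.632 for Syvn1, 0.0245 to 0.625 for Dnajb11 and 0.0770 to 0.738 for Vldlr. Depth limits Eif2ak3, Asns, Chac1, Gdf15, Sdf2l1, Creld2 and Manf most, each with fewer than 50 reads in some library, and Trib3 and Fgf21 could not be tested.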
